A study of Mus musculus with 8 samples.

Results

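The Serpina genes of mouse chromosome 12 encode serpins, a protein family of which many members are secreted into blood by liver cells and trap proteases. The 10 genes described here are Serpina1a, Serpina1b, Serpina1c, Serpina1d, Serpina1e, Serpina3k, Serpina3m, Serpina3n, Serpina6 and Serpina10. They are 10 of the 14659 protein-coding genes whose methylation could be tested. A gene's span was its RefSeq position in mm10 extended by 2 kb on each side, and the 10 spans held 1937 of the 30729668 listed cytosine positions. They lie in a stretch of 801.66 kb, chr12:103614675-104416334, which holds 23 protein-coding genes.

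Liver DNA of male C57BL/6J mice, with genotype WT in every library, was sequenced across the genome after bisulfite treatment, which leaves methylated cytosines unconverted. The first group, titled NASH (nonalcoholic steatohepatitis), has 4 libraries. The second, titled WT and named ND (normal diet) in the deposited table, also has 4 libraries and is called ND here. Per the series' design text, mice bought at 8 weeks of age received for 28 weeks either a diet rich in fat, cholesterol and fructose or a normal diet. In the labels, the treatment entries run opposite to the titles. Titles and column names carry 1 grouping, which was used, and every direction given here would turn round if the treatment entries were right. Whether each library is a separate mouse is not stated, and p-values measure the spread between libraries, which may be technical.

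An inhibitory serpin offers its reactive loop as bait to a protease, which is then trapped in a covalent complex. The Serpina1 genes encode α1-antitrypsin, the main inhibitor of neutrophil elastase in blood. The human genome has a single such gene, while the C57BL/6 mouse has several close copies. The Serpina3 genes are likewise multiplied in the mouse from a counterpart of human SERPINA3, α1-antichymotrypsin, which inhibits cathepsin G. Serpina6 encodes corticosteroid-binding globulin, which carries glucocorticoids in blood. Serpina10 encodes the protein Z-dependent inhibitor of coagulation factor Xa. In mammals methylated CpGs near the start of a gene often go with low transcription, and transcripts were not analysed here.

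The 250 bases before the RefSeq start of each Serpina1 gene are shown because reads from near-identical copies are the hardest to place. All 5 copies lie on the minus strand of GRCm38.p6, the assembly behind mm10, and each line reads towards the start with CpGs in capitals. The stretches are chr12:103738190-103738439 for Serpina1b, chr12:103773634-103773883 for Serpina1d, chr12:103863620-103863869 for Serpina1a, chr12:103904951-103905200 for Serpina1c and chr12:103956898-103957147 for Serpina1e.
Serpina1b: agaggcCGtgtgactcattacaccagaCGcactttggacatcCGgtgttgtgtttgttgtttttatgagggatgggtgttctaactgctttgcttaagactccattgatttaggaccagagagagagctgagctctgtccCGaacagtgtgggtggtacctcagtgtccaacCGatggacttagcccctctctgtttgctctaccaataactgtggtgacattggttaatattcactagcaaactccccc
Serpina1d: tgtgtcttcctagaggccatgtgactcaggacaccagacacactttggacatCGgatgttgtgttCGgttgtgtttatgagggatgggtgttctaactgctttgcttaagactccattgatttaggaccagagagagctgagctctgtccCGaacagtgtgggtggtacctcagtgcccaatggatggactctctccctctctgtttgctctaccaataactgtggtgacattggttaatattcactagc
Serpina1a: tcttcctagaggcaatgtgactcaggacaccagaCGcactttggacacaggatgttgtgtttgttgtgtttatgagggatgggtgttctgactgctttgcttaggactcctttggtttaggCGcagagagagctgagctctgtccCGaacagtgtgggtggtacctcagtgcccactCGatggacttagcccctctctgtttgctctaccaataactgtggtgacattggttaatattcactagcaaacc
Serpina1c: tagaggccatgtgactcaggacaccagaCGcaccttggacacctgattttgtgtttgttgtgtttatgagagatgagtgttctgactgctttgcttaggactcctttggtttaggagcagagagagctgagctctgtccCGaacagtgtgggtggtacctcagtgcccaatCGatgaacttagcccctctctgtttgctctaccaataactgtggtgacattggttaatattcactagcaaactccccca
Serpina1e: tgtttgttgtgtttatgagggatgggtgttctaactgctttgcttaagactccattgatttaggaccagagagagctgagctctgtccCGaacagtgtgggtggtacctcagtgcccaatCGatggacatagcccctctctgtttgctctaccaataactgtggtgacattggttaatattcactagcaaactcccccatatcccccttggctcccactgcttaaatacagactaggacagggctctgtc

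Over 300 bases of promoter, which add the 50 bases after the start, the 10 pairs of copies were 91.7% to 98.4% identical where they aligned. The longest run shared without a mismatch was 59 to 119 bases per pair, and 64 to 124 bases once every C was read as T, as bisulfite conversion does. A read that lies wholly within such a run fits both copies of the pair without a mismatch. A read that crosses a mismatch fits only its own copy of the pair exactly. It could still be placed on the other copy if mismatches were allowed, and whether they were was not given. Runs were measured in these promoters only, not over the whole spans, and not with G read as A. Read length was not given in the sources used here, nor how reads with several matches were handled, and their part in the levels was not tested.

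The copies held 2 to 5 CpGs in these 250 bases, against a median of 6 over 27025 RefSeq promoters. A single CpG was shared by all 5 copies. It lies 110 bases before the start in Serpina1b, 100 in Serpina1d, 105 in Serpina1a, 111 in Serpina1c and 162 in Serpina1e. Another was shared by 4 copies and lost in Serpina1d, at 78, 73, 79 and 130 bases before the start in Serpina1b, Serpina1a, Serpina1c and Serpina1e. By these distances the RefSeq start of Serpina1e lies farther downstream than in the other copies. Its 250 bases, with 2 CpGs, are thus an offset stretch, and a further CpG lies just outside at -259. The letters GTTAAT, the core of the motif of the liver factor HNF1, were found on either strand in 5 of 5 copies, against 6.52% of RefSeq promoters of the same length. They begin 26 bases before the start in Serpina1b, 16 in Serpina1d, 21 in Serpina1a, 27 in Serpina1c and 78 in Serpina1e. TTGCNNAA, the motif of the C/EBP factors, was found in 3 copies (Serpina1b, Serpina1d and Serpina1e) and in 9.55% of promoters. TATAAA was found in 0 copies and in 13.0% of promoters. A match is a run of letters and was not tested as a binding site. Matches in near-identical copies are not separate observations, so their number against the share of promoters is no measure of enrichment.

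Differences below are NASH minus ND in percentage points. Over all member positions the mean level was 56.1% ± 1.41 in NASH and 45.9% ± 1.496 in ND (SD, n = 4 libraries each), and the groups did not overlap. Over the whole table the means were 71.5% ± 0.584 in NASH and 71.9% ± 0.515 in ND, and those groups overlapped. Read depth is unknown because the table gives no read counts. An exact 0 can stand for an unmethylated cytosine or for a position without reads. Zeros made up 12.3% to 13.0% of positions per NASH library and 12.8% to 13.1% per ND library. In the member spans they were less even, at 5.12% (Serpina1e) to 13.5% (Serpina1a) in NASH and 11.05% (Serpina3m) to 28.7% (Serpina1c) in ND.

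Of the 10 member spans, 8 were higher in NASH at an adjusted p under 0.05, 0 were lower and 2 were not called. Adjusted p-values are from limma over all 14659 spans, of which 5.81% were called higher and 2.84% lower. In 9 of the 10 spans every NASH library lay above every ND library, as in 9.61% of all spans, and in 0 the reverse, as in 7.87% of all spans. The median difference was 9.76 percentage points over the members and -0.269 over all spans. The members began from a lower level than most genes, with ND means of 27.2% to 58.3% against a median of 67.5% over all spans. Among the 3752 spans within that range of ND means, 11.6% were called higher and 1.28% lower.

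**Figure D1:**
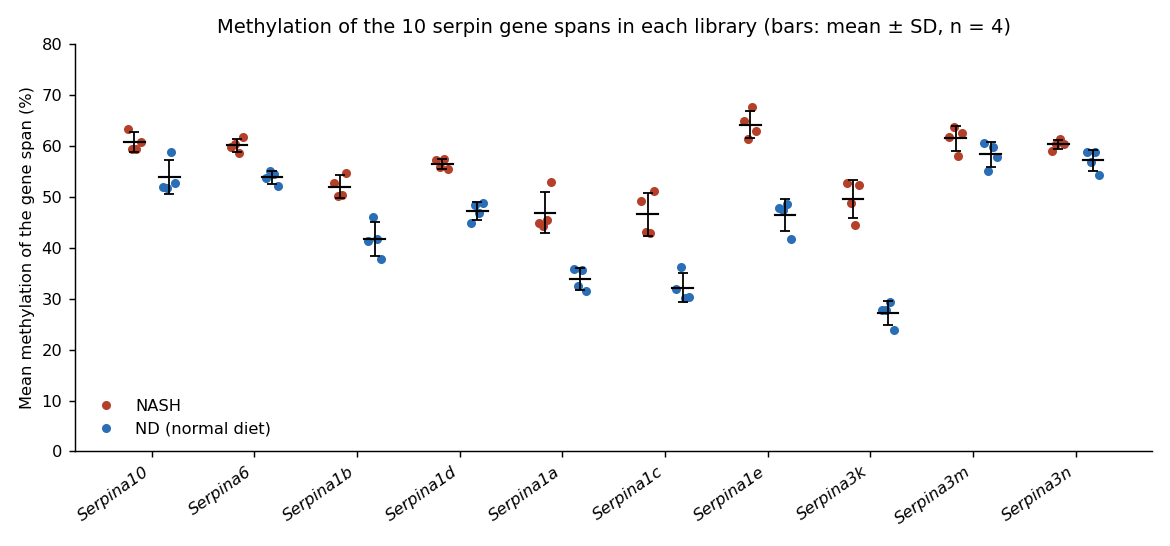
Mean methylation of each gene span (%, vertical axis) in every library, genes in chromosome order from left to right, NASH in red left of ND in blue; bars are means ± SD over 4 libraries. The groups lie apart in all genes but Serpina3m, and the gap is widest in Serpina3k, with 49.6% in NASH and 27.2% in ND.

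Among the α1-antitrypsin copies, Serpina1e moved most. Its span stood at 64.9, 61.3, 67.5 and 62.9% in the NASH libraries, against 47.8, 47.4, 48.5 and 41.7% in the ND libraries. All NASH libraries lay above all ND libraries, and the difference was 17.8 points (SE 1.78, adjusted p = 0.00187). Serpina1c stood at 49.1, 43.0, 42.9 and 51.2% in NASH, against 31.9, 36.3, 30.1 and 30.4% in ND. NASH libraries 2 and 3 were the lower pair, yet all 4 were above ND, with a difference of 14.4 points (SE 2.19, adjusted p = 0.00683).

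Serpina1a stood at 44.9, 44.3, 45.4 and 52.8% in NASH, against 35.7, 32.5, 35.6 and 31.4% in ND. NASH library 4 was the highest by a wide gap, and the difference was 13.1 points (SE 1.95, adjusted p = 0.00659). Serpina1b stood at 52.8, 50.1, 50.4 and 54.7% in NASH, against 41.3, 45.9, 41.8 and 37.8% in ND, a difference of 10.3 points (SE 1.73, adjusted p = 0.00966). Serpina1d was the tightest of the copies, with 57.1, 55.9, 57.4 and 55.4% in NASH, against 44.8, 48.4, 46.9 and 48.8% in ND. It differed by 9.24 points (SE 0.933, adjusted p = 0.00188), the smallest difference among the 5 copies. Averaged over the 5 copies, the level was 53.2% ± 1.88 in NASH and 40.3% ± 1.70 in ND (SD, n = 4 libraries each).

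Of the Serpina3 genes, Serpina3k was called and Serpina3m and Serpina3n were not. Serpina3k, a secreted serpin of hepatocytes known for binding tissue kallikrein, stood at 52.6, 48.8, 44.5 and 52.3% in NASH, against 27.8, 27.8, 29.4 and 23.8% in ND. Its difference of 22.4 points (SE 1.92, adjusted p = 0.00119) was the largest of the 10 genes, and the lowest NASH library stood well above the highest ND library. Serpina3m stood at 61.8, 63.8, 58.0 and 62.5% in NASH, against 60.5, 55.1, 59.7 and 57.9% in ND. Its groups overlapped, and its difference of 3.198 points was not called (SE 1.49, adjusted p = 0.233). Serpina3n, an acute-phase inhibitor of granzyme B and cathepsin G, stood at 59.1, 60.3, 61.4 and 60.3% in NASH, against 58.7, 56.9, 58.7 and 54.3% in ND. Its groups lay just apart, with the lowest NASH library at 59.1% and the highest ND library at 58.7%. The difference in means of 3.09 points was not called (SE 1.02, adjusted p = 0.106).

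The carrier gene Serpina6 stood at 59.7, 60.3, 58.5 and 61.8% in NASH, against 53.8, 55.1, 54.4 and 52.1% in ND. Every NASH library was above every ND library, by 6.24 points in the mean (SE 0.855, adjusted p = 0.00441). Serpina10, the factor Xa inhibitor, stood at 63.4, 59.5, 59.4 and 60.8% in NASH, against 51.9, 51.8, 58.8 and 52.7% in ND. ND library 3 came within 1 point of the lowest NASH library. The difference of 6.96 points was called (SE 1.65, adjusted p = 0.0366). That call ended in 7 of the 8 fits that left out 1 library (adjusted p up to 0.101), and it was kept without ND library 3 (adjusted p = 0.00613). Over the gene without the 2 kb on each side, the calls of Serpina6 (adjusted p = 0.0639) and Serpina10 (adjusted p = 0.0652) also ended.

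The order of the levels differed between the groups. In NASH it ran from Serpina1e at 64.2% through Serpina3m, Serpina10, Serpina3n and Serpina6, whose libraries overlapped with their neighbours in the order, to Serpina1d at 56.4% and Serpina1b at 51.99%. Serpina1d overlapped with neither neighbour. Serpina3k at 49.6%, Serpina1a at 46.9% and Serpina1c at 46.6% closed the NASH order with overlapping libraries. In ND it ran from Serpina3m at 58.3% through Serpina3n, Serpina6 and Serpina10 to Serpina1d at 47.2%, Serpina1e at 46.4%, Serpina1b at 41.7%, Serpina1a at 33.8%, Serpina1c at 32.2% and Serpina3k at 27.2%. The ND libraries lay apart between Serpina10 and Serpina1d, between Serpina1b and Serpina1a and between Serpina1c and Serpina3k, and they overlapped between the other neighbours. The members thus covered a narrower range of means in NASH (46.6% to 64.2%) than in ND (27.2% to 58.3%). The 3 genes with the lowest ND means, Serpina3k, Serpina1c and Serpina1a, were among the 4 with the largest differences, together with Serpina1e. The ND mean enters both quantities, so this is a description.

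**Figure D2:**
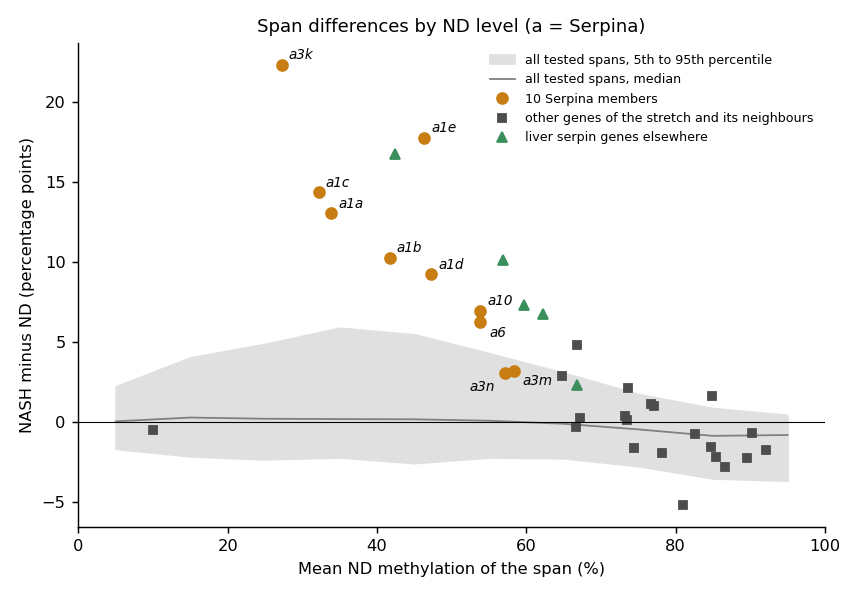
Difference in span level (NASH minus ND, percentage points, vertical axis) against the ND mean of the span (%, horizontal axis); the grey band holds the 5th to 95th percentile and the line the median of all tested spans in steps of 10% of the ND mean. The circles are the 10 members, of which Serpina3m and Serpina3n lie within the band and the other 8 above it, while most squares, the other genes of the stretch and its neighbours, lie at higher ND means and near 0.

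With every exact 0 left out, as if each stood for missing reads, the differences shrank. Only Serpina1e, at 67.6% in NASH and 55.3% in ND (difference 12.3 points, adjusted p = 0.0281), and Serpina3k, at 53.1% in NASH and 36.3% in ND (difference 16.8 points, adjusted p = 0.0145), were then called, where 0.922% of 14532 spans were called higher. The other 8 had adjusted p-values from 0.0782 to 0.882. The difference of Serpina6 was then 0.411 points. Leaving out only doubtful zeros, those whose 10 nearest positions had a median of 50% or more in the same library, kept all 8 calls. This rule flags few zeros where levels lie below 50%, as in ND for most called members. In Serpina1c zeros made up 28.7% of ND positions and doubtful zeros 1.16%. In Serpina3k zeros made up 25% in ND and 6.69% in NASH, and doubtful zeros 1.45% in ND and 4.36% in NASH. The kept calls therefore cannot decide whether ND zeros stand for missing reads. Doubtful zeros made up 1.89% to 8.29% of positions per span in NASH and 1.16% to 7.65% in ND, with Serpina10 highest in both groups.

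Each gene was cut into 3 equal parts by coordinate, beside its flanks of 2 kb, and these parts are described without a test. In both groups all 5 α1-antitrypsin copies were lowest in the part at the high coordinate, where these minus-strand genes start. ND means there were 16.2% to 25.02%. Serpina1e differed most there, with 48.0% ± 1.06 in NASH and 25.02% ± 6.76 in ND. Serpina1c had 35.8% ± 3.42 in NASH and 17.3% ± 5.70 in ND, Serpina1b 33.1% ± 4.36 in NASH and 16.2% ± 1.53 in ND, and Serpina1a 34.4% ± 7.41 in NASH and 20.2% ± 3.80 in ND. In each of these the libraries of the groups did not overlap, whereas in Serpina1d they did, with 29.7% ± 4.64 in NASH and 20.3% ± 4.89 in ND (SD, n = 4 libraries each).

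In the upstream flank, the 2 kb above the high end, Serpina1a had 41.7% ± 2.76 in NASH and 24.1% ± 7.63 in ND, and the groups did not overlap. The same flank of the other 4 copies stood at 55.6% to 74.0% in ND, and their differences ran from -0.880 points (Serpina1e) to 5.57 points (Serpina1b) with overlapping libraries. On the far side, in the 2 kb below the low end, the 5 copies differed by 11.6 (Serpina1c) to 26.0 points (Serpina1b). There Serpina1b had 46.8% ± 11.8 in NASH and 20.7% ± 7.21 in ND, and Serpina1d was the copy whose groups overlapped.

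Serpina3k was low throughout in ND and higher throughout in NASH. Its 5 parts differed by 16.8 to 26.4 points, and the groups did not overlap in any of them. In Serpina3m the differences lay at the low-coordinate side. In the lowest of its 3 parts the level was 29.1% ± 1.58 in NASH and 19.3% ± 2.68 in ND, and in the 2 kb below it 41.3% ± 6.63 in NASH and 29.6% ± 3.83 in ND. From the middle part of Serpina3m upwards the differences were within 0.527 points. Serpina3n had 54.5% ± 1.37 in NASH and 46.3% ± 5.23 in ND in the 2 kb below its low end, which is its upstream side, and overlapping libraries in every other part.

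In Serpina6 the differences lay at the high end. The part of the gene there had 48.7% ± 3.31 in NASH and 38.8% ± 3.63 in ND, and the 2 kb above it 48.0% ± 5.59 in NASH and 28.0% ± 2.95 in ND, both without overlap. Its other parts had overlapping groups and differences from -3.04 to 2.22 points. In Serpina10 the groups lay apart in both flanks and in the part at the high end. That part had 46.2% ± 1.80 in NASH and 33.8% ± 4.66 in ND, and the middle part 70.7% ± 1.73 in NASH and 71.9% ± 3.53 in ND.

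**Figure D3:**
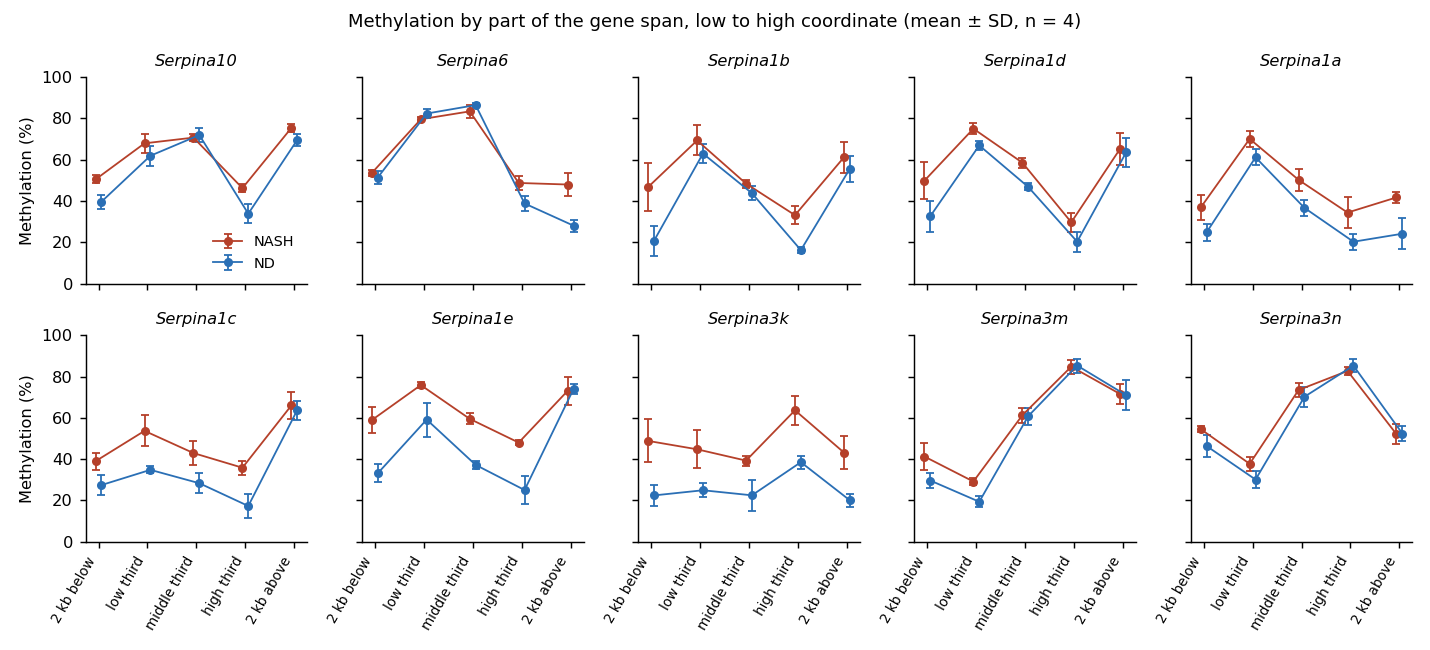
Methylation (%, vertical axis) of 5 parts of each span, the 2 kb below the gene, its 3 equal parts and the 2 kb above it from low to high coordinate (horizontal axis), as mean ± SD over 4 libraries, NASH in red and ND in blue. The Serpina1 copies dip in the part at their start, with ND means of 16.2% to 25.02%, and the lines of Serpina3k lie apart in all 5 parts.

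Gene ends, which reach 1000 bases outward and 500 bases into the gene, were tested separately. Of the 20 member ends, 4 were called higher in NASH and 0 lower, where 0.24% of 28752 ends were called higher and 0.0765% lower. The median difference was 11.9 points over the member ends and -0.217 over all ends. In 9 member ends every NASH library lay above every ND library, as in 4.3% of all ends, and in 0 the reverse, as in 4.04%. The shares over all ends were not matched to the ND levels of the member ends.

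The called ends were the promoter end of Serpina1a, the low ends of Serpina1b and Serpina1e and the high end of Serpina6. The Serpina1a promoter end stood at 38.9, 42.0, 35.9 and 39.1% in NASH, against 27.8, 29.4, 24.2 and 26.8% in ND (difference 11.9 points, SE 1.91, adjusted p = 0.0453). The low end of Serpina1b, which lies behind the gene, stood at 59.8, 65.8, 62.8 and 66.3% in NASH, against 48.2, 47.9, 48.1 and 46.2% in ND (difference 16.1 points, SE 2.33, adjusted p = 0.0444). Both sets of libraries lay apart, and the ND libraries of Serpina1b lay close together.

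The low end of Serpina1e stood at 81.4, 65.3, 71.7 and 71.1% in NASH, against 53.6, 42.6, 47.3 and 34.6% in ND, which was the largest difference of the 20 ends (27.8 points, SE 4.59, adjusted p = 0.0485). The high end of Serpina6 stood at 45.0, 57.1, 44.1 and 53.9% in NASH, against 30.7, 27.3, 31.9 and 28.1% in ND (difference 20.5 points, SE 3.17, adjusted p = 0.0451). All 4 calls stood close to the threshold, and each ended in every fit that left out 1 library and with every 0 left out. Each also ended with the replicate block and when the 371 ends at 0 in every library were kept in the fit. With those ends kept, the adjusted p-values of the 4 ends were 0.0671 to 0.0747. With ends reaching 2000 bases either way, 11 of the 20 member ends were called higher, where 2.12% of 29156 ends were.

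Ends just short of the threshold included the low end of Serpina3k, with 49.0% ± 2.32 in NASH and 27.8% ± 7.62 in ND (adjusted p = 0.0506), and the low end of Serpina3m, with 34.0% ± 8.80 in NASH and 15.7% ± 4.11 in ND (adjusted p = 0.0850, SD, n = 4 libraries each). The promoter ends of Serpina1b, Serpina1d, Serpina1c and Serpina1e were 7.28 to 11.6 points higher in NASH by the mean, with overlapping libraries and adjusted p-values from 0.355 to 0.496. The promoter end of Serpina3n had 25.9% ± 6.22 in NASH and 27.7% ± 5.36 in ND (difference -1.84 points, adjusted p = 0.865). The 3 member ends lower in NASH by the mean were this end, the high end of Serpina3n at -0.0189 points and the low end of Serpina6 at -3.41 points.

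Single CpGs, each the mean of its 2 strands, were scattered between libraries. They were taken from 250 bases before to 50 bases after the start, so those after the start lie beyond the sequences shown. All 19 CpGs of the 5 Serpina1 promoters had a higher mean in NASH, and in 3 of them every NASH library lay above every ND library, where 0.428% of 256194 CpGs in RefSeq promoters did. In 0 of them the order was the reverse, against 0.481% of those CpGs. These shares were not matched to the ND levels of the Serpina1 CpGs, nor were those given below for single positions and windows. The share of all promoter CpGs with a higher mean in NASH is not given here. CpGs of near-identical copies are not separate observations. In Serpina1b the CpG at -78 stood at 51.9, 32.5, 36.7 and 68.8% in NASH, against 25, 28.3, 14.5 and 12.5% in ND. In Serpina1a the CpG at -105, the one shared by all copies, stood at 65.0, 45.0, 45.0 and 61.4% in NASH, against 34.3, 43.6, 11.1 and 24.3% in ND. In Serpina1d the CpG at +8 stood at 51.4, 62.5, 50 and 41.1% in NASH, against 20.2, 37.2, 40 and 21.4% in ND. Each of the 3 had an exact two-sided permutation p of 0.0286, the smallest that 4 against 4 libraries allow, with no adjustment for the 22 CpGs compared.

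At the shared CpG the groups overlapped in the other 4 copies, for example with 64.8, 25, 16.7 and 56.3% in NASH, against 21.4, 29.2, 28.2 and 12.5% in ND in Serpina1b. Averaged over the CpGs of a promoter, the groups overlapped in all 5 copies. Serpina1c had 71.7, 20.7, 34.7 and 38.9% in NASH, against 22.1, 29.1, 14.2 and 4.46% in ND. The 3 CpGs of the Serpina3n promoter were low in both groups, at 16.6% ± 7.14 in NASH and 12.2% ± 6.23 in ND over the promoter (SD, n = 4 libraries each). Over 1000 bases before to 500 after the start, 109 of 156 single positions in the 6 promoters were higher in NASH by the mean. The share of all positions higher by the mean is not given here. The groups did not overlap at 6 positions higher and 3 lower in NASH, where 0.948% of all positions of the table were higher and 1.09% lower in that way.

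**Figure D4:**
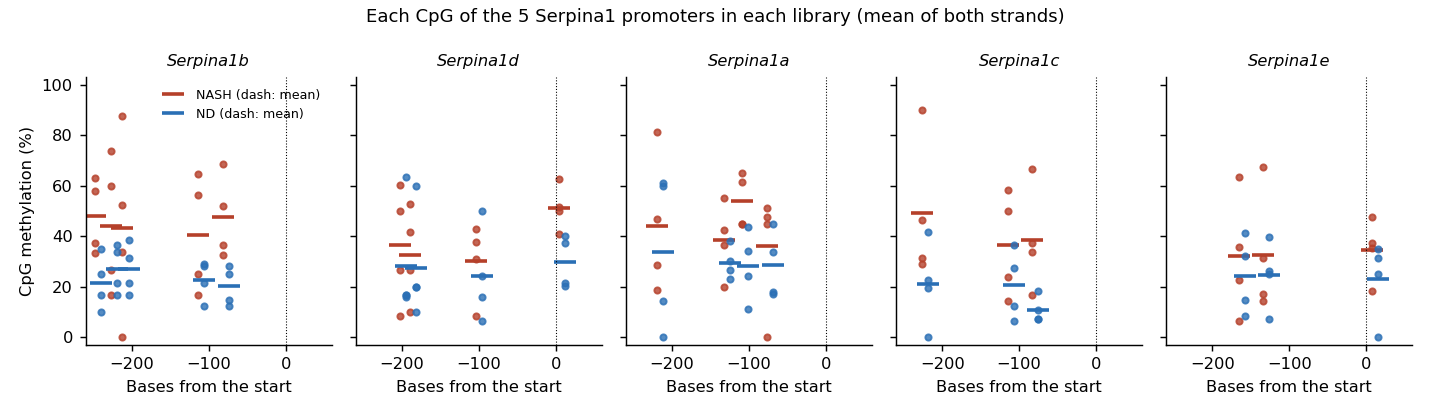
Level of each CpG of the 5 Serpina1 promoters (%, vertical axis, mean of both strands) by its distance from the RefSeq start in bases (horizontal axis, dotted line at the start), with a point per library and dashes at group means, NASH in red left of ND in blue. Every NASH mean lies above its ND mean, and the points of the groups overlap in all but 3 of the 19 CpGs.

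Along the stretch, 717 windows of 1 kb could be tested. By limma 0 of the 1597860 windows of the table were called in either direction (0% higher and 0% lower), with 169487 at an unadjusted p under 0.05, so windows are given as a description. The smallest adjusted p in the stretch was 0.0652. Of the 140 windows touching a member span, 50 had every NASH library above every ND library and 1 the reverse, where 2.81% of all windows were above and 3.73% below in that way. Of the 128 windows over other protein-coding genes 11 were above and 8 below. Of the 449 windows outside protein-coding genes and member spans 33 were above and 21 below. These 449 include the windows of 2 transcribed pseudogenes. Serpina4-ps1 had 13 windows, 9 above and 0 below, and Serpina3h had 10 windows, 0 above and 1 below.

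Serpina1e was the most complete, with 13 of its 15 windows above, and Serpina1c had 8 of 15, Serpina3k 6 of 9 and Serpina6 5 of 15. Serpina3m had 1 of 10 and Serpina1d 2 of 15. The window with the largest difference, named after its values were seen, was chr12:103946001-103947000 at the low end of Serpina1e. It stood at 79.7, 62.2, 76.6 and 65.2% in NASH, against 42.6, 33.5, 37.5 and 31.4% in ND.

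**Figure D5:**
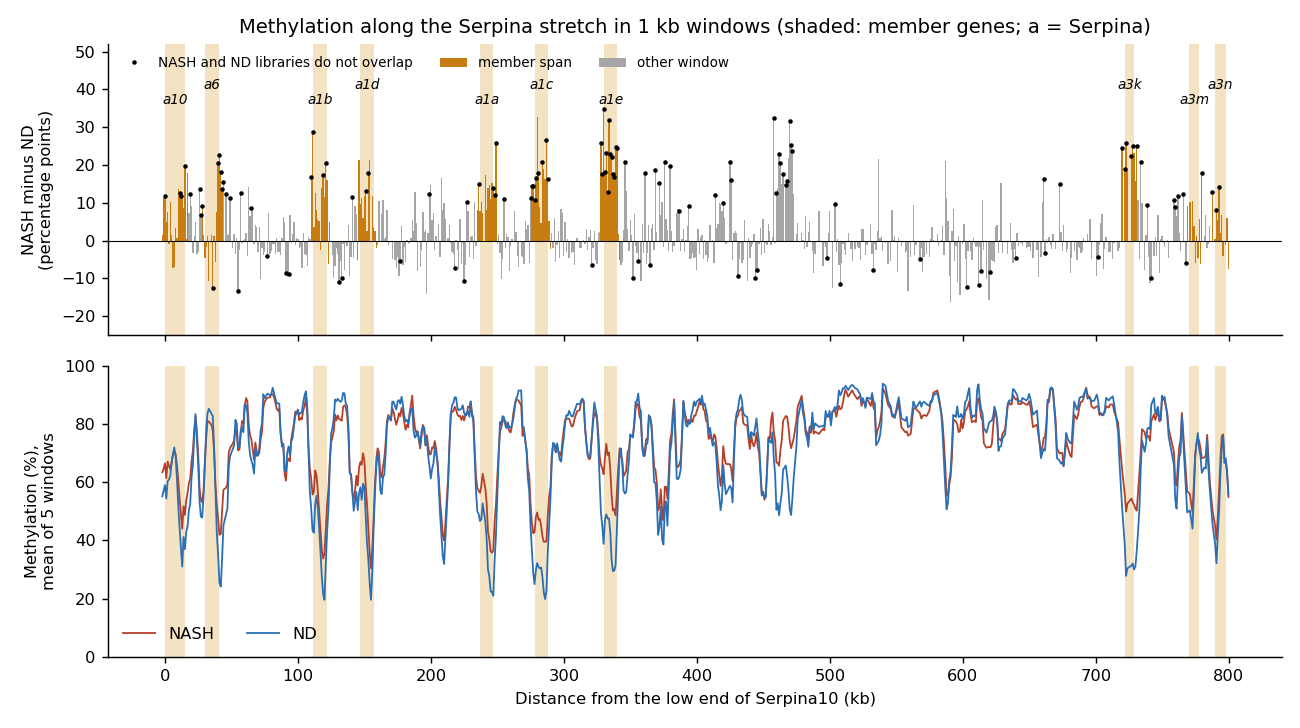
Difference in methylation (NASH minus ND, percentage points, upper panel) in windows of 1 kb and running mean level over 5 windows (%, lower panel, NASH in red and ND in blue) by distance from the low end of Serpina10 in kb, with member genes shaded and dots at windows whose libraries do not overlap. The dips of the ND line at the members are shallower in NASH, and the grey bars between 457.8 and 469.8 kb lie at and beside Serpina4-ps1, a transcribed pseudogene.

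Among the other genes of the stretch and its neighbours 2 were called, in opposite directions. The list of other cluster genes and neighbours held 24 genes, of which 21 had a tested span. Of these 1 was called higher and 1 lower, where 5.81% and 2.84% of all spans were. The median difference was -0.473 points. Serpina11 was called higher, with 67.7% ± 1.36 in NASH and 64.8% ± 0.833 in ND (adjusted p = 0.0498). Serpina3g, an intracellular cathepsin inhibitor of leukocytes, was called lower, with 75.9% ± 2.16 in NASH and 81.1% ± 1.64 in ND (adjusted p = 0.0323, SD, n = 4 libraries each). The 13 other protein-coding genes inside the stretch had ND means of 64.8% to 92.1%, all above those of the 10 members.

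Liver serpins on other chromosomes were also called higher. Of the 7 listed, 5 could be tested, 4 were called higher and 0 lower, with a median difference of 7.35 points. Over all spans 5.81% were called higher and 2.84% lower. Serpind1, heparin cofactor II, had 59.3% ± 3.39 in NASH and 42.5% ± 2.86 in ND (adjusted p = 0.00237). Serpinc1, antithrombin, had 67.1% ± 1.41 in NASH and 56.9% ± 0.390 in ND (adjusted p = 0.000863). Serping1, the C1 inhibitor, and Serpinf2, α2-antiplasmin, differed by 7.35 and 6.78 points. Serpinf1 had 69.1% ± 0.694 in NASH and 66.8% ± 2.36 in ND and was not called (adjusted p = 0.238).

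The proteases of neutrophils, which serpins of these families trap, were not called higher. Of the 3 neutrophil protease genes 0 were called higher and 1 lower, where 5.81% and 2.84% of all spans were. Ctsg, cathepsin G, had 70.3% ± 2.61 in NASH and 76.9% ± 1.28 in ND (adjusted p = 0.0162). Prtn3, proteinase 3, had 42.3% ± 1.71 in NASH and 45.7% ± 1.32 in ND and was not called (adjusted p = 0.0701), and neither was Elane, neutrophil elastase, with 64.5% ± 3.95 in NASH and 59.5% ± 2.15 in ND (adjusted p = 0.153, SD, n = 4 libraries each).

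Genes that mark liver cell types also differed between the groups. For comparison, 5.81% of all spans were called higher and 2.84% lower. Among spans within the members' range of ND means the shares were 11.6% and 1.28%. Of 12 hepatocyte genes 10 could be tested, with 9 called higher, 0 lower, a median difference of 10.7 points and a median level of 53.6% in NASH and 41.2% in ND. The called genes were Alb, Apoa2, Ttr, Ahsg, Fgb, Hnf4a, Cps1, Arg1 and F2, and Apoh was not called. Alb, the albumin gene, had 42.3% ± 4.21 in NASH and 30.2% ± 1.17 in ND (adjusted p = 0.00729). Of 7 tested neutrophil genes 0 were called higher and 3 lower (Mpo, Itgb2 and Csf3r), with a median difference of -3.43 points. Of 9 macrophage genes 0 were called higher and 3 lower (Mpeg1, C1qb and Spi1), with a median difference of -1.83 points. Of 4 lymphocyte genes Cd52 was called lower and 0 higher, and of 7 stellate, 6 endothelial and 5 cholangiocyte genes 0 were called in either direction. In bulk liver DNA a change in the mix of cells and a change of methylation within cells cannot be told apart.

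The spans most like the mean of the 10 members over the 8 libraries, among 14635 genes outside the cluster, were Nit2 on chromosome 16 (Pearson r = 0.998), Shb on chromosome 4 (r = 0.997) and Ak3 on chromosome 19 (r = 0.996). Nit2 had 40.05% ± 1.21 in NASH and 31.5% ± 0.791 in ND. These correlations are a description over libraries that share the group difference.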

How the data were processed

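Per the labels' protocols, liver DNA was sonicated, treated with bisulfite and sequenced. The deposited table holds the authors' percent methylation per CpG cytosine, each strand on its own row, without read counts. The submitters' processing notes name FastQC and mm10. The aligner was not given in the sources used here, nor was the methylation caller. Depth per library is unknown, so no interval was computed.

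The table as held here covers 15 placed chromosomes (1 to 4, 5 up to position 117098872, and 10 to 19). A further 326824 positions on 85 contigs and 1 incomplete line were not used. Listed positions lay 1 base above the reference: at that shift 100% of 512388 CpG bases of RefSeq promoters were listed, against 55.09% unshifted. Positions were moved down by 1 base.

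Levels of a region's positions were averaged per library without weights, for regions of at least 6 positions. Regions at 1 level in every library (57 spans, 371 ends and 11977 windows) were left out. limma 3.58.1 (R 4.3.3) compared NASH with ND using a mean-dependent prior variance and Benjamini-Hochberg adjustment over all regions, with calls at adjusted p under 0.05. Scripts were tested on simulated data. Copies were aligned with MAFFT 7.526. Gene positions and sequences are RefSeq's for GRCm38.p6, whose promoter table matched 6 of the 10 members. Serpina3k, Serpina3m, Serpina6 and Serpina10 are given by their low and high coordinates. Other steps ran in Python 3.11.15 with pandas 2.3.3 and numpy 2.4.6.

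The members and lists were chosen with earlier results of these data known. Genes named are the 10 members and, of the lists of cluster genes and neighbours, of liver serpins elsewhere and of neutrophil proteases, the called genes and the 2 with the smallest p. No naming rule was set for the cell type lists, whose named genes, like Serpinf1 and Elane, were chosen after their values were seen. Of the windows, up to 5 in each direction were to be named among called ones, and 0 were called. Alternatives left out zeros or libraries, added a replicate block, and changed the scale, the region limits, the minimum of positions, the averaging of strands and the prior variance. Leaving out regions at 1 level was not planned. Keeping them and using positions as listed were added as alternatives after the data were examined.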

Additional observations from a re-analysis of the deposited data

Results flagged for a closer look

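Of 60 sets of 4 libraries tested for a library standing apart (spans and ends of the members by group), 3 had one, close to the 1 in 20 that chance gives. In the Serpina10 span ND library 3 was the highest at 58.8%, while the other ND libraries lay between 51.8% and 52.7%. In the Serpina1a span NASH library 4 was the highest at 52.8%, while the others lay between 44.3% and 45.4%. In the Serpina1e span ND library 4 was the lowest at 41.7%, while the others lay between 47.4% and 48.5%. Without these libraries in turn the spans of Serpina1a and Serpina1e stayed called, and Serpina10 was called at an adjusted p of 0.00613.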

How the results depend on the processing

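Whether the replicate numbers mark a pairing is not stated. Deviations from the group means correlated at -0.0300 to 0.113 between same-numbered libraries and at -0.151 to 0.134 between the others. Of 8 libraries, 2 correlated best with their own number. Correlations this few and weak cannot decide whether same-numbered libraries share an origin. With the replicate block 756 spans were called, against 1268 without it, of which 6 were members, with Serpina1b and Serpina10 lost, and 0 ends, 0 member ends and 0 windows. With every 0 left out, 459 spans (134 higher and 325 lower), 2 member spans, 0 ends, 0 member ends, 1701 windows and 3 promoter positions were called or did not overlap; 785 of those windows were higher and 916 lower. On the logit scale 279 ends and 10 windows were called. With 1 prior variance 274 ends and 1950 windows were called. With regions at 1 level kept 3 ends, 0 member ends and 4 windows were called. With ends reaching 2000 bases either way 890 ends and 11 member ends were called. Averaging strands first gave 2 member ends, doubtful zeros left out 117 windows, and a minimum of 10 positions 288 windows. Leaving out 1 library gave 714 to 1223 spans, 7 to 8 member spans, 2 to 17 ends, 0 member ends, 0 to 2 windows and 7 to 19 promoter positions above. The cause of these changes was not tested.

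Over single member spans 163 of 180 results under alternatives kept direction and call, 17 lost the call and 0 turned. Single member ends were followed without the low ends of Serpina1a, Serpina1c and Serpina1d and the high end of Serpina3n. Over the ends followed, 225 of 286 results kept direction and call, 47 lost and 8 gained a call, and 6 turned. The turned ends, none of which was called, were Serpina1c high (-0.148 points, every 0 left out), Serpina6 low (1.30), Serpina3n low (4.89) and Serpina3m high (-1.03) with ends reaching 2000 bases, Serpina3m high (-0.0541 without ND library 3, in a range of -0.0541 to 5.01 over left-out libraries) and Serpina3n low (0.729 without ND library 4, in a range of -4.90 to 0.729).

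Without read counts, a level from few reads weighs as much as one from many, which limits single CpGs most.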

Other observations

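Serpina4-ps1, a transcribed pseudogene between the Serpina1 and Serpina3 genes, was not in the fit of protein-coding spans. Its span, chr12:104075959-104088920 with 168 positions, stood at 75.9, 71.3, 76.3 and 74.9% in NASH, against 53.3, 53.6, 57.2 and 54.3% in ND. All NASH libraries lay above all ND libraries, by 20.01 points in the mean (exact two-sided permutation p = 0.0286, the smallest that 4 against 4 libraries allow). In 9 of its 13 windows of 1 kb the NASH libraries lay above the ND libraries, and in 0 below, against 2.81% and 3.73% of all windows. These windows make up the same span and are not further evidence. The other listed pseudogene, Serpina3h, had 88.4% ± 1.31 in NASH and 89.9% ± 0.951 in ND (SD, n = 4 libraries each), and its groups overlapped (exact two-sided permutation p = 0.143). Both pseudogenes were on a list written with earlier results known, and the p-values of the 2 comparisons are not adjusted.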
